A study of Arabidopsis thaliana with 79 samples.

Results

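PDF2.1, PDF2.5 and LCR68 are 3 Arabidopsis thaliana genes of the plant defensin class. They were chosen by name, with earlier results of these data known. Counts of their calls beside the shares over all probe sets therefore describe chosen genes and are not independent tests. Each was matched by 1 probe set that carries no other gene: 266141_at for PDF2.1 (AT2G02120), 247337_at for PDF2.5 (AT5G63660) and 266118_at for LCR68 (AT2G02130, also called PDF2.3). These are 3 of 22746 probe sets tested, and all 3 were read in all 36 groups of 79 arrays. In the RefSeq annotation PDF2.1 and LCR68 are immediate neighbours, in a cluster that holds 6 genes with defensin or LCR names, while PDF2.5 lies apart between SNRK2.5 and SPT42. How far probes of one cluster gene also bind transcripts of another was not tested.

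Plant defensins are small secreted peptides, folded around a core that disulphide bonds between cysteines hold together, and LCR stands for low-molecular-weight cysteine-rich. Many members of the family slow the growth of fungi. Members of the PDF1 class, of which PDF1.2 is the best known, are induced in leaves through jasmonate and ethylene, whereas PDF2 class genes are mostly described as expressed without infection. The LCR68 peptide, under its name PDF2.3, is known to block potassium channels in laboratory assays, and PDF2.5 has been described as a cadmium-binding peptide. PDF2.1 is a further PDF2 class peptide.

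The arrays carry RNA of 7-day-old Col-0 seedlings held for 2 h in argon, called hypoxia here, or in air. All groups, controls included, express the ribosomal protein fusion His6FLAG-RPL18B from 1 of 13 promoters, and the RNA on the tagged ribosomes was immunopurified from whole roots or whole shoots; this is polysomal RNA below. Total RNA came from the clarified extract of the p35S line. The root lines under hypoxia and in air were p35S, pSCR, pSHR, pWOL, pGL2, pSUC2, pCO2, pPEP and pRPL11C, the shoot lines were p35S, pGL2, pRBCS, pSUC2, pCER5 and pKAT1, and pSultr2;2 was profiled in air alone in both organs. From general knowledge, the SCR promoter is active in the endodermis, SHR and WOL in the stele, GL2 in non-hair epidermis and trichomes, SUC2 and Sultr2;2 in the phloem, CO2 and PEP in the cortex, RPL11C in dividing root cells, RBCS in mesophyll, CER5 in shoot epidermis, KAT1 in guard cells and 35S in most cells. A line reports only those cells in which its promoter is on, and whether a line comes from 1 transformant is not given in the sources used here. Root total RNA has 3 hypoxic and 4 air arrays, root p35S and pGL2 have 2 hypoxic and 3 air arrays, shoot total RNA has 3 arrays per condition, and each other group has 2.

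Values are RMA log2 signals, so a difference of 1 is a change of 2-fold. A level of one probe set is never set against that of another here, because probes differ in brightness. Array medians lay between 6.31 and 6.64 and the lowest value in the table was 3.31. Replicate arrays correlated at 0.973 or more, and 0 pairs of arrays were identical. The tests come from a limma fit to all 79 arrays, and a line is set against the mean of the other lines of its organ. In these comparisons and in the order of lines, p35S is left out because its promoter is active in most cells, and its values are given apart. A result is called higher or lower when its Benjamini-Hochberg adjusted p is under 0.05 and its difference at least 1, and errors of differences are standard errors (SE). Of the marker genes listed for the cell types, few have a named probe set. Those that do include GSO1, a receptor kinase of the endodermal barrier, which was higher in pSCR than in the other root lines by 2.28 ± 0.21 in air, and the guard cell regulator FMA, higher in pKAT1 by 2.77 ± 0.16. The cortex markers JKD and PEP were not called in the cortex lines: in air JKD differed by 0.80 ± 0.20 in pPEP and −0.04 ± 0.20 in pCO2, beside 0.83 ± 0.20 in pSCR, and PEP by 0.13 ± 0.31 in pPEP and −0.42 ± 0.31 in pCO2. The 1 epidermal marker measured, FDH, differed by 0.14 ± 0.20 in pCER5 in air and was not called there. The phloem marker SWEET11 was lower, not higher, in shoot pSUC2 in air. SPCH and MUTE for guard cells, RCA for mesophyll, and EXPA7 and EXPA18 for root hairs are measured too, but their values are not given here. The same holds for the dividing cell markers AUR1 and AUR2 in pRPL11C in air. None of the xylem and none of the non-hair epidermis and trichome markers is measured, so the labels of pGL2 were not checked.

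All 3 genes differed among root lines, each with a pattern of its own, and 1 of them, LCR68, differed among shoot lines. PDF2.5 peaked in pSCR and PDF2.1 in pRPL11C and pWOL. LCR68 was bright in all root lines and lower in pSCR and pPEP than in the others. By limma's moderated F-test over the 9 root lines in air, the line means spanned 3.29 for PDF2.1 (adjusted p 4.42e-11), 4.47 for PDF2.5 (8.94e-20) and 2.61 for LCR68 (6.86e-16). All 3 of 3 were called there, where 31.6% of all probe sets were. They were called again over the 8 root lines under hypoxia (3 of 3, against 30.7% of probe sets). In shoots 1 of 3, LCR68, was called under hypoxia (range 4.55, adjusted p 2.88e-24) and in air (5.59, 1.04e-27), where 31.4% and 33.8% of probe sets were called. PDF2.1 had shoot ranges of 1.10 under hypoxia and 1.11 in air (adjusted p 0.2 and 0.27), and PDF2.5 of 0.35 and 0.44 (0.824 and 0.773).

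**Figure D1:**
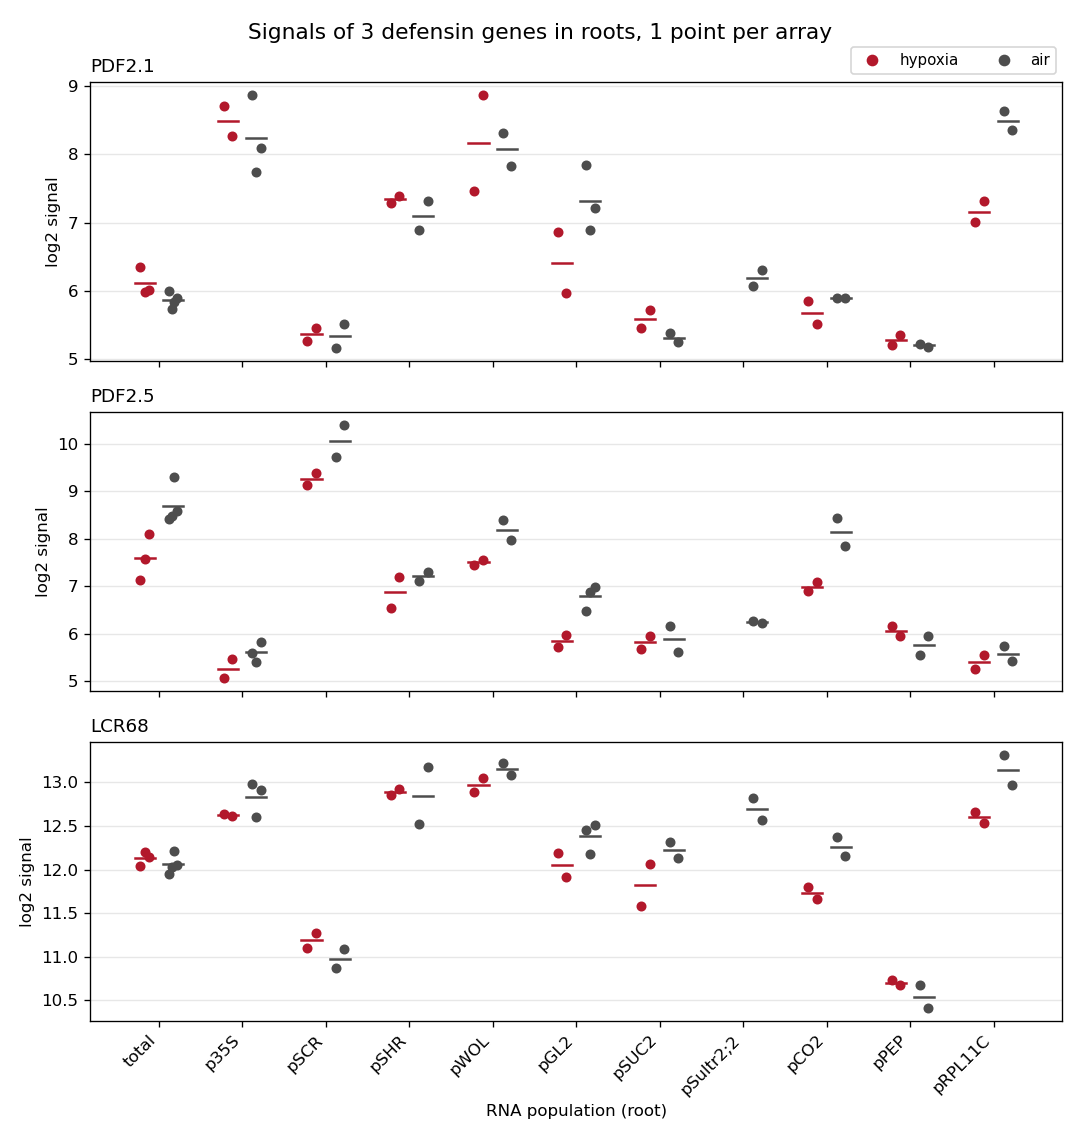
Log2 signals of PDF2.1, PDF2.5 and LCR68 in root RNA populations. Each point is 1 array and each bar the group mean, with hypoxia in red left of air in grey. PDF2.5 stands highest in pSCR, with array values from 9.14 to 10.40. PDF2.1 is low there, and LCR68 is bright there but lower than in every line except pPEP.

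PDF2.5 in roots was highest in polysomal RNA of the pSCR line. Its pSCR arrays read 9.72 and 10.40 in air. In the other lines in air it read 8.40 and 7.97 in pWOL, 8.44 and 7.84 in pCO2, 7.12 and 7.30 in pSHR, 6.49, 6.88 and 6.99 in pGL2, 6.27 and 6.22 in pSultr2;2, 6.17 and 5.63 in pSUC2, 5.56 and 5.96 in pPEP, and 5.75 and 5.42 in pRPL11C. Both pSCR arrays lay above all 17 arrays of the other lines. The line order below pSCR was a step to pWOL and pCO2, whose arrays overlapped, then separate steps to pSHR, pGL2 and pSultr2;2, and at the bottom pSUC2, pPEP and pRPL11C, of which neighbours in the order overlapped. The p35S arrays, at 5.60, 5.41 and 5.83, lay with this bottom group.

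Against the mean of the other root lines in air, PDF2.5 was higher in pSCR by 3.33 ± 0.20, 10.1-fold (adjusted p 2.4e-18). It was also higher in pWOL (1.23 ± 0.20, 8.84e-05) and in pCO2 (1.18 ± 0.20, 2.75e-05). PDF2.5 was lower in pRPL11C (−1.70 ± 0.20), pPEP (−1.5 ± 0.20) and pSUC2 (−1.35 ± 0.20). The means that these lines were set against include the pSCR peak, at 10.06, which raises them. How far the lower calls depend on it was not tested. Counting all 3 genes over 9 root lines in air, 7 of 27 results were higher and 8 lower, while 1.92% of results over all probe sets were higher and 1.6% lower. The pWOL and pCO2 calls rest on replicate 1, without which the differences were 1.01 (adjusted p 0.126) and 0.88.

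Under hypoxia, in other arrays, PDF2.5 kept its peak in pSCR. The pSCR arrays read 9.14 and 9.39, above all 14 arrays of the other hypoxic lines, and the difference was 2.90 ± 0.20 (adjusted p 6.19e-16). PDF2.5 was lower in pRPL11C by 1.5 ± 0.20 on the log2 scale, where its arrays read 5.26 and 5.56. It was lower in pSUC2 by 1.03 ± 0.20, where they read 5.68 and 5.96. The means that these lines were set against, 6.91 for pRPL11C and 6.85 for pSUC2, include the pSCR peak. The p35S mean was 5.27, below that of both lines, and the p35S arrays overlapped those of pRPL11C. The pRPL11C and pSUC2 differences without pSCR were not tested. Values in pWOL (0.90 ± 0.20), pCO2 (0.31 ± 0.20), pGL2 (−1.0 ± 0.20, just short of the threshold) and pPEP (−0.76 ± 0.20) were not called. Over the 3 genes and 8 root lines under hypoxia, 5 of 24 results were higher and 5 lower, against 1.82% and 1.52% of results over all probe sets. The pSUC2 call was lost without its hypoxic replicate 1 (−0.89) and without hypoxic replicate 2 of pSHR (−0.98), and pGL2 gained one without any of several single arrays (to −1.13).

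The endodermal marker GSO1, the 1 measured gene of 10 listed, shared the pSCR peak and not the rest of this order. It averaged 10.22 ± 0.17 in pSCR, 9.17 ± 0.21 in pPEP and 8.05 ± 0.34 in pCO2 in air (SD, n = 2 each). GSO1 was higher in pPEP by 1.09 ± 0.21, where PDF2.5 was lower, and differed by −0.30 ± 0.21 in pWOL. How the purity of each line bears on the PDF2.5 values was not tested. In extracts of whole organs, fewer cells of a type and less RNA per cell cannot be told apart.

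Among root lines other than p35S, PDF2.1 was highest in pRPL11C and pWOL and lowest in pPEP, pSUC2 and pSCR. In air its pRPL11C arrays read 8.62 and 8.36, its pWOL arrays 8.31 and 7.83, its pGL2 arrays 7.84, 6.90 and 7.21, and its pSHR arrays 6.89 and 7.31. It read 6.08 and 6.30 in pSultr2;2, 5.90 in both pCO2 arrays, 5.16 and 5.51 in pSCR, 5.38 and 5.25 in pSUC2, and 5.23 and 5.17 in pPEP. The pRPL11C arrays lay above all 17 arrays of the other lines, p35S apart. The p35S arrays read 8.87, 7.74 and 8.09 and overlapped those of pRPL11C and pWOL. Among the lines next in order, the pWOL and pGL2 arrays overlapped, as did those of pGL2 and pSHR, and a gap of 0.91 separated the means of pSHR and pSultr2;2.

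Against the other root lines in air, PDF2.1 was higher in pRPL11C by 2.19 ± 0.30, 4.55-fold (adjusted p 3.23e-07), and in pWOL by 1.72 ± 0.30 (0.00036). It was lower in pPEP (−1.51 ± 0.30), pSUC2 (−1.39 ± 0.30) and pSCR (−1.36 ± 0.30). In pGL2 the difference was 0.87 ± 0.25 and not called. The pWOL call was lost without replicate 1 (1.48, adjusted p 0.169), and so was that of pSCR (−1.18, 0.0733). Set against p35S, PDF2.1 differed by 0.26 in pRPL11C and −0.16 in pWOL, neither called, and was lower in pPEP (−3.03), pSUC2 (−2.92) and pSCR (−2.89). The phloem marker SWEET11 was also higher in pWOL in air (1.60 ± 0.29), and the stele marker LHW differed by 0.19 ± 0.17; their part in the PDF2.1 values was not tested.

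Under hypoxia pWOL was the highest root line other than p35S for PDF2.1, with a wide gap between its arrays. The arrays read 7.46 and 8.87 in pWOL, 7.29 and 7.39 in pSHR, 7.01 and 7.31 in pRPL11C, 6.85 and 5.96 in pGL2, 5.85 and 5.52 in pCO2, 5.46 and 5.72 in pSUC2, 5.27 and 5.46 in pSCR, and 5.21 and 5.35 in pPEP. The p35S arrays read 8.70 and 8.26, on average above pWOL, whose arrays span theirs. PDF2.1 was higher in pWOL (2.05 ± 0.31, adjusted p 1.36e-05) and pSHR (1.11 ± 0.31, 0.0206), and lower in pPEP (−1.25 ± 0.31) and pSCR (−1.15 ± 0.31). In pRPL11C the difference was 0.90 ± 0.31 and not called. Without hypoxic replicate 2 the pWOL difference was 1.34 (adjusted p 0.116), and the pSHR and pSCR calls were lost without either of their own arrays (adjusted p between 0.0915 and 0.276). Against p35S the sign turned in pWOL (−0.32) and pSHR (−1.14), with no call.

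LCR68 gave bright signals in all root populations, from 10.41 to 13.32. In air it read 13.22 and 13.08 in pWOL, 13.32 and 12.97 in pRPL11C, 12.52 and 13.18 in pSHR, 12.82 and 12.57 in pSultr2;2, 12.46, 12.17 and 12.52 in pGL2, 12.37 and 12.15 in pCO2, 12.31 and 12.14 in pSUC2, 10.87 and 11.08 in pSCR, and 10.68 and 10.41 in pPEP. The last 2 lines stood apart, with all their arrays below all arrays of the other lines. The p35S arrays, at 12.98, 12.60 and 12.92, lay within the range of the high lines. LCR68 was lower in pPEP by 1.92 ± 0.16 on the log2 scale (adjusted p 1.56e-13) and in pSCR by 1.43 ± 0.16 (5.37e-10). It was higher in pWOL (1.02 ± 0.16) and pRPL11C (1.01 ± 0.16), both so close to the threshold of 1 that leaving out any of several single arrays ended the call, with values from 0.83 to 1.00.

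Under hypoxia LCR68 was again lower in pPEP, by 1.47 ± 0.16 on the log2 scale (adjusted p 5.5e-10). The pPEP arrays read 10.73 and 10.67, below all 14 arrays of the other lines. In pSCR, at 11.10 and 11.28, the difference was −0.92 ± 0.16 and not called. LCR68 was higher in pWOL by 1.11 ± 0.16 and in pSHR by 1.02 ± 0.16, and the pSHR call was lost without any 1 of 3 single arrays, with values from 0.98 to 1.00. In pPEP the dividing cell markers AUR1 (−1.80 ± 0.21 in air) and AUR2 (−1.83 ± 0.27) were lower too, and the epidermal marker FDH was higher (1.73 ± 0.20); their part in the pPEP values of the 3 defensin genes was not tested.

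**Figure D2:**
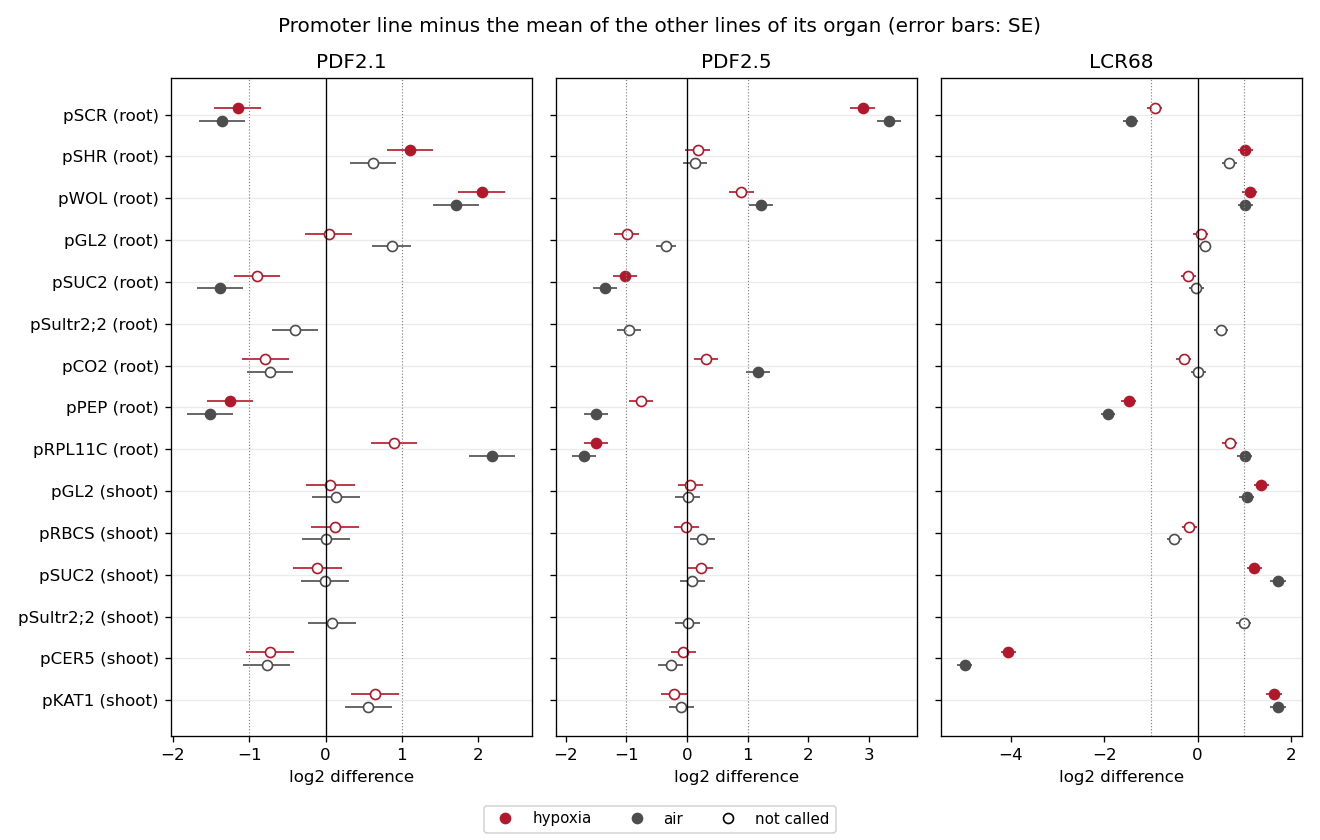
Log2 difference of each promoter line from the mean of the other lines of its organ, with SE, for hypoxia (red) above air (grey). Filled points are called and dotted lines mark a difference of 1; the largest values are those of PDF2.5 in root pSCR (2.90 and 3.33) and of LCR68 in shoot pCER5 (−4.05 and −4.98).

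In shoots LCR68 was far lower in the pCER5 line than in any other. Its pCER5 arrays read 7.02 and 5.96 in air. The other lines in air read 11.86 and 12.30 in pSUC2, 11.86 and 12.30 in pKAT1, 11.36 and 11.68 in pGL2, 11.57 and 11.36 in pSultr2;2, and 10.22 and 10.23 in pRBCS. The pCER5 mean lay 3.74 below that of pRBCS, the next line up, and no other line overlapped it.

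Against the other shoot lines in air, LCR68 was lower in pCER5 by 4.98 ± 0.16 on the log2 scale, 31.7-fold (adjusted p 6.38e-29). It was higher in pSUC2 (1.72 ± 0.16, 2.43e-12), pKAT1 (1.72 ± 0.16, 9.08e-12) and pGL2 (1.05 ± 0.16, 2.75e-05). The mean that each of these lines is set against includes pCER5, which lowers it. For pGL2, with a mean of 11.52, it was 10.47, while pSultr2;2 averaged 11.46 and pRBCS 10.23. The 3 higher calls are thus not separate from the low pCER5 value, and the differences without pCER5 were not tested. The pGL2 call was lost without its replicate 2 (0.89) and without pCER5 replicate 2 (0.95). Over the 3 genes and 6 shoot lines in air, 3 of 18 results were higher and 1 lower, all of LCR68, while 3.33% of results over all probe sets were higher and 2.85% lower. The phloem marker SWEET11, the 1 measured of 10 listed, was also lower in pCER5 (−3.41 ± 0.30) and higher in pKAT1 (2.3 ± 0.30), but it was lower in pSUC2 (−2.31 ± 0.30). Its part in the LCR68 values was not tested.

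Under hypoxia LCR68 in pCER5 read 7.60 and 7.13, against values of 10.44 or more in the other shoot lines. It was lower in pCER5 by 4.05 ± 0.17 on the log2 scale, 16.6-fold (adjusted p 1.27e-24), and higher in pKAT1 (1.64 ± 0.17), pGL2 (1.37 ± 0.17) and pSUC2 (1.22 ± 0.17). Here 3 of 15 results were higher and 1 lower, again all of LCR68, beside 3.69% and 3.19% over all probe sets. The means that the 3 higher lines were set against, 10.28 to 10.36, include pCER5. They lie below every array of the lines other than pCER5, so these 3 calls are not separate from its low value. PDF2.1 was not called in any shoot line. Leaving out p35S, whose arrays read 6.22 to 7.90 and are described with the polysomal comparison, its line values ranged from 4.85 to 6.40, lowest in pCER5 (5.21 and 4.85 in air) and highest in pKAT1 (5.91 and 6.37 in air). PDF2.5 read 4.27 to 5.08 over all 32 shoot arrays, at percentiles 10.7 to 27.0 of the probe sets, and no difference among shoot lines was detected for it. So near the low end of the signals, a lack of difference for PDF2.5 in shoots says little, here and in the comparisons below.

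**Figure D3:**
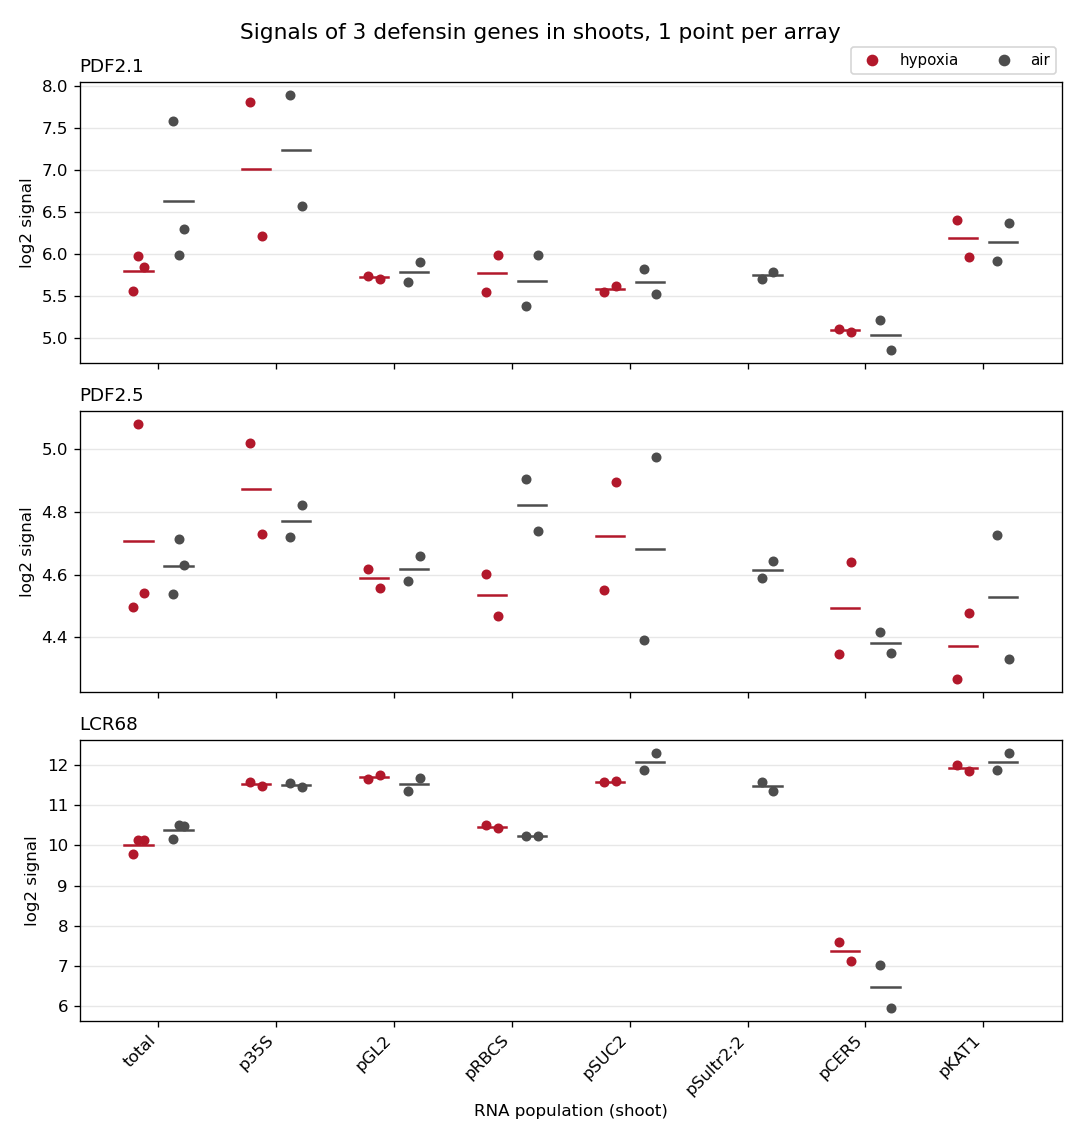
Log2 signals of PDF2.1, PDF2.5 and LCR68 in shoot RNA populations, 1 point per array with the group mean as a bar, hypoxia in red left of air in grey. LCR68 in pCER5, from 5.96 to 7.60, lies below all its other shoot arrays, and PDF2.5 stays between 4.27 and 5.08; each panel has its own axis range.

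The comparison of roots with shoots asked in which organ each gene is more abundant. PDF2.5 was higher in roots. In total RNA under hypoxia it read 7.13, 7.57 and 8.10 in roots, against 4.50, 5.08 and 4.54 in shoots. In air it read 8.41, 8.48, 9.30 and 8.59 in root total RNA, against 4.54, 4.71 and 4.63 in shoot total RNA. No root and shoot arrays overlapped. The shoot arrays lay near the low end of the signals, at percentiles 12.6 to 26.3 of the probe sets under hypoxia and 15.4 to 19.8 in air. The size of the folds given next is uncertain for that reason. The root minus shoot difference was 2.89 ± 0.22 under hypoxia, 7.43-fold (adjusted p 2.06e-16), and 4.07 ± 0.20 in air, 16.8-fold (3.42e-23). It was also called in pGL2 (1.26 ± 0.26 under hypoxia and 2.17 ± 0.24 in air), pSUC2 (1.10 ± 0.26 and 1.21 ± 0.26) and, in air, pSultr2;2 (1.63 ± 0.26), but not in p35S (0.39 ± 0.26 and 0.84 ± 0.24). Both pSUC2 calls were lost without single arrays (0.92 to 0.96).

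LCR68 was higher in roots than in shoots in total RNA, by 2.12 ± 0.17 under hypoxia and 1.68 ± 0.16 in air (adjusted p 4.29e-15 and 7.74e-13). Its root total RNA arrays read 12.04, 12.21 and 12.14 under hypoxia, against 9.78, 10.12 and 10.13 in shoots. It was also higher in p35S (1.09 ± 0.21 under hypoxia, 1.33 ± 0.19 in air) and, in air, in pSultr2;2 (1.23 ± 0.21). In pSUC2 the root minus shoot difference was 0.24 ± 0.21 under hypoxia and 0.15 ± 0.21 in air, with overlapping arrays. PDF2.1 was called in p35S under hypoxia (1.47 ± 0.40, adjusted p 0.00283) and in pGL2 in air (1.53 ± 0.37, 0.000595). In total RNA in air its difference had the other sign, −0.76 ± 0.31 (0.0384), and was called lower without shoot replicate 2 (−1.08, 0.00796). In p35S in air the difference was 1.00 ± 0.37 and just short of the threshold, and it was called with the replicate number as a block (1.07, adjusted p 0.0127). The hypoxic p35S call was lost with that block (0.89, adjusted p 0.163), and the difference was 0.67 without shoot replicate 2 and 2.26 without shoot replicate 1. Over the 3 genes, 6 of 12 results under hypoxia and 8 of 15 in air were higher in roots and 0 were lower; over all probe sets 12.3% and 12% were higher, and 10.4% and 10.1% lower.

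The effect of hypoxia on these genes was small beside the differences among lines. In roots 3 of 30 results fell and 0 rose, where 2.4% of results over all probe sets fell and 3.13% rose. In shoots 0 of 21 rose and 0 fell by limma with Benjamini-Hochberg adjustment, where 1.52% rose and 0.63% fell; 4 of the 21 had an unadjusted p under 0.05. The falls were those of PDF2.5 in root total RNA and in pCO2 and of PDF2.1 in pRPL11C.

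PDF2.5 read 7.13, 7.57 and 8.10 in hypoxic root total RNA, against 8.41, 8.48, 9.30 and 8.59 in air. The groups did not overlap, and PDF2.5 fell by 1.09 ± 0.20 on the log2 scale (adjusted p 9.5e-05). In pCO2 it read 6.90 and 7.08 under hypoxia, against 8.44 and 7.84 in air, and fell by 1.15 ± 0.26 (0.00151). Its difference was −0.94 ± 0.24 in pGL2, −0.80 ± 0.26 in pSCR and −0.68 ± 0.26 in pWOL, in each of which the hypoxic arrays lay below the air arrays without a call. In pGL2 a call was gained without air replicate 1 (−1.09) or hypoxic replicate 2 (−1.07), and in pSCR without air replicate 1 (−1.14). The PDF2.5 difference was −0.07 ± 0.26 in pSUC2, −0.18 ± 0.26 in pRPL11C and 0.30 ± 0.26 in pPEP. The total RNA difference was −0.89 without air replicate 3 and −0.86 without hypoxic replicate 1, and the pCO2 difference −0.85 without air replicate 1 (adjusted p 0.0813), each no longer called. With 50 added to the linear values both fell short of the threshold of 1 as well, at −0.92 in total RNA and −0.91 in pCO2. GSO1 differed by −0.66 ± 0.22 in root total RNA and by 0.50 ± 0.28 in pCO2, not called in either.

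PDF2.1 in pRPL11C read 7.01 and 7.31 under hypoxia, against 8.62 and 8.36 in air. It fell by 1.33 ± 0.40 on the log2 scale (adjusted p 0.0147), and the call was lost without air replicate 1 (−1.20) or hypoxic replicate 1 (−1.18). The dividing cell marker AUR2, a mitotic kinase, fell there too, by 1.18 ± 0.36 on the log2 scale (0.0169), and AUR1 differed by −0.22 ± 0.27; their part in the PDF2.1 value was not tested. In pGL2 its difference was −0.91 ± 0.37 (adjusted p 0.133), and in the other 8 root populations it lay between −0.22 and 0.28. LCR68 differed by between −0.55 (pRPL11C) and 0.21 (pSCR) in roots and was not called in any of the 10 populations.

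Whether the response to hypoxia differs among lines was asked with an F-test over the lines. In roots 0 of 3 genes were called and 3.39% of probe sets were. PDF2.5 had the lowest adjusted p of the 3, 0.0826, with responses spanning 1.45, and was the 1 of 3 with an unadjusted p under 0.05 (0.00412). It passed without air replicate 1 of pSCR (adjusted p 0.0466) and without hypoxic replicate 1 of pSHR (0.0497), and with 50 added to the linear values (0.0362). In shoots 1 of 3 was called, LCR68, with a span of 1.37 (adjusted p 0.0476), and 1.29% of probe sets were. LCR68 read 7.60 and 7.13 in hypoxic pCER5, against 7.02 and 5.96 in air, a difference of 0.88 ± 0.21 (adjusted p 0.00474) that is under the threshold of 1. It was 1.41 and called without air replicate 1, and 1.11 without hypoxic replicate 2. In pSUC2 it read 11.57 and 11.59 under hypoxia, against 11.86 and 12.30 in air, a difference of −0.50 ± 0.21. This F-test call was lost when the shoot arrays were fitted alone (adjusted p 0.257), with 50 added to the linear values (0.0716) and without any of 14 single arrays.

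**Figure D4:**
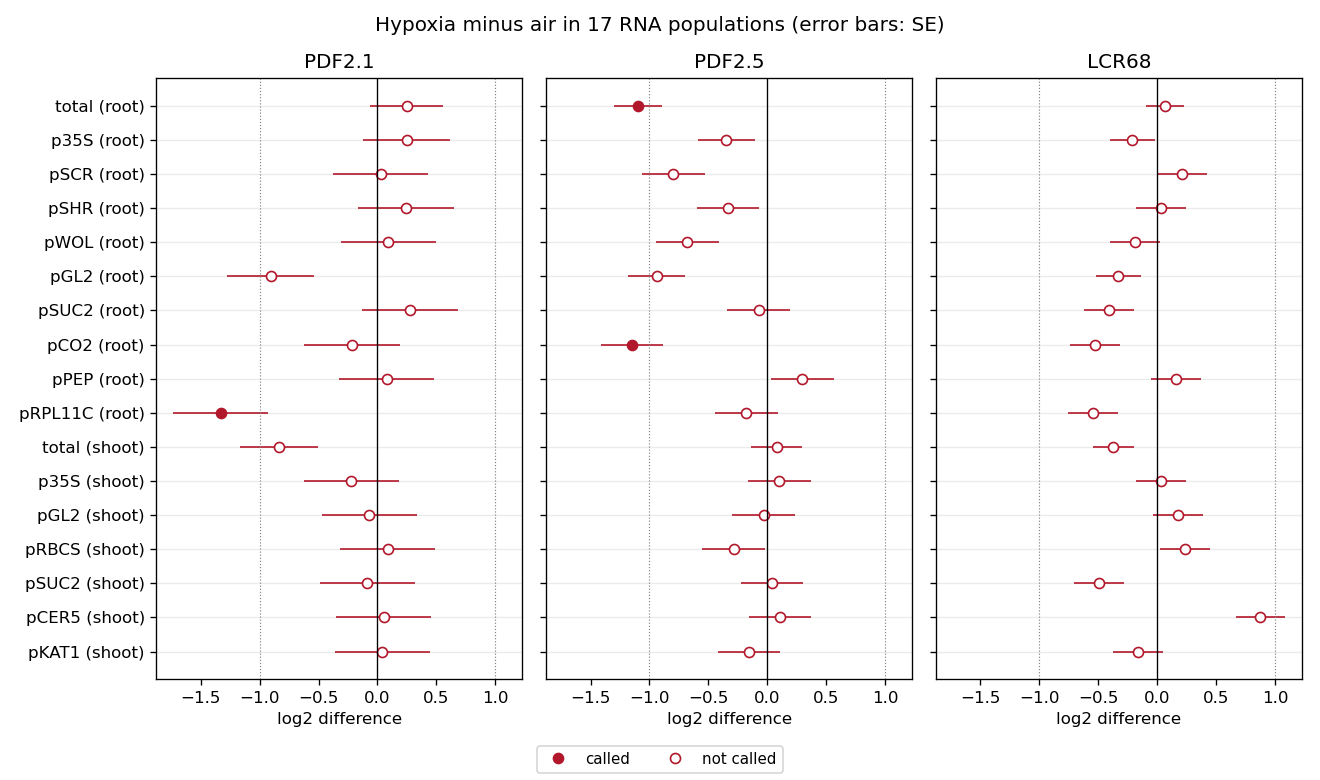
Hypoxia minus air (log2, with SE) for the 3 genes in 10 root and 7 shoot RNA populations. Filled points are called: PDF2.5 in root total RNA (−1.09) and pCO2 (−1.15), and PDF2.1 in root pRPL11C (−1.33); dotted lines mark a difference of 1.

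A further comparison set polysomal RNA of the p35S line against total RNA of that line, which asks whether a transcript is over- or under-represented on tagged ribosomes. In roots PDF2.1 and PDF2.5 differed in opposite directions. PDF2.1 read 8.70 and 8.26 in polysomal RNA of hypoxic roots, against 6.35, 5.98 and 6.02 in total RNA. In air it read 8.87, 7.74 and 8.09 in polysomal RNA, against 5.99, 5.74, 5.84 and 5.90 in total RNA. All polysomal arrays lay above all total RNA arrays. The difference was 2.37 ± 0.37 under hypoxia, 5.16-fold (adjusted p 8.92e-06), and 2.37 ± 0.31 in air, 5.15-fold (7.89e-08).

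PDF2.5 read 5.07 and 5.46 in polysomal RNA of hypoxic roots, against 7.13, 7.57 and 8.10 in total RNA. In air it read 5.60, 5.41 and 5.83 in polysomal RNA, against 8.41, 8.48, 9.30 and 8.59 in total RNA. All polysomal arrays lay below all total RNA arrays. PDF2.5 was lower in polysomal RNA by 2.33 ± 0.24 under hypoxia, 5.04-fold (adjusted p 2.9e-09), and by 3.08 ± 0.20 in air, 8.46-fold (3.82e-16). GSO1 was also lower in p35S polysomal RNA in air, by 1.24 ± 0.22 on the log2 scale, and differed by −0.81 ± 0.26 under hypoxia. How evenly the 35S promoter tags the endodermis and other cells was not tested. Set against p35S in place of the other lines, PDF2.5 in air was higher in pSCR by 4.44, in pWOL by 2.57 and in pCO2 by 2.53, and it differed by 0.28 in pSUC2 and 0.15 in pPEP, where the sign was opposite to that against the other lines.

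LCR68 was over-represented in polysomal RNA of shoots. It read 11.58 and 11.48 in polysomal RNA under hypoxia, against 9.78, 10.12 and 10.13 in total RNA, a difference of 1.52 ± 0.19 (adjusted p 1.36e-07). In air it read 11.55 and 11.45, against 10.16, 10.51 and 10.47, a difference of 1.12 ± 0.19 (6.58e-05). In roots its polysomal arrays also lay above the total RNA arrays, with differences of 0.49 ± 0.19 under hypoxia and 0.77 ± 0.16 in air that were not called. PDF2.5 in shoots, near the low end of the signals, differed by 0.17 ± 0.24 under hypoxia and 0.14 ± 0.24 in air.

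PDF2.1 in shoots varied widely between replicates of p35S polysomal RNA and of total RNA in air, but not of total RNA under hypoxia. Its p35S polysomal arrays read 7.81 and 6.22 under hypoxia and 7.90 and 6.57 in air, with replicate 1 the higher in both. Its total RNA arrays read 5.56, 5.98 and 5.85 under hypoxia and 7.59, 5.99 and 6.30 in air. The polysomal difference of 1.22 ± 0.37 under hypoxia was called (adjusted p 0.0222), but it was 0.43 without polysomal replicate 1, 2.02 without polysomal replicate 2, and lost with the replicate number as a block (1.25, adjusted p 0.0606). In air the difference was 0.61 ± 0.37. Over the 3 genes in roots, 2 of 6 results were higher and 2 lower in polysomal RNA, where 2.61% and 2.73% of results over all probe sets were. In shoots 3 of 6 were higher and 0 lower, where 1.38% and 1.95% were.

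**Figure D5:**
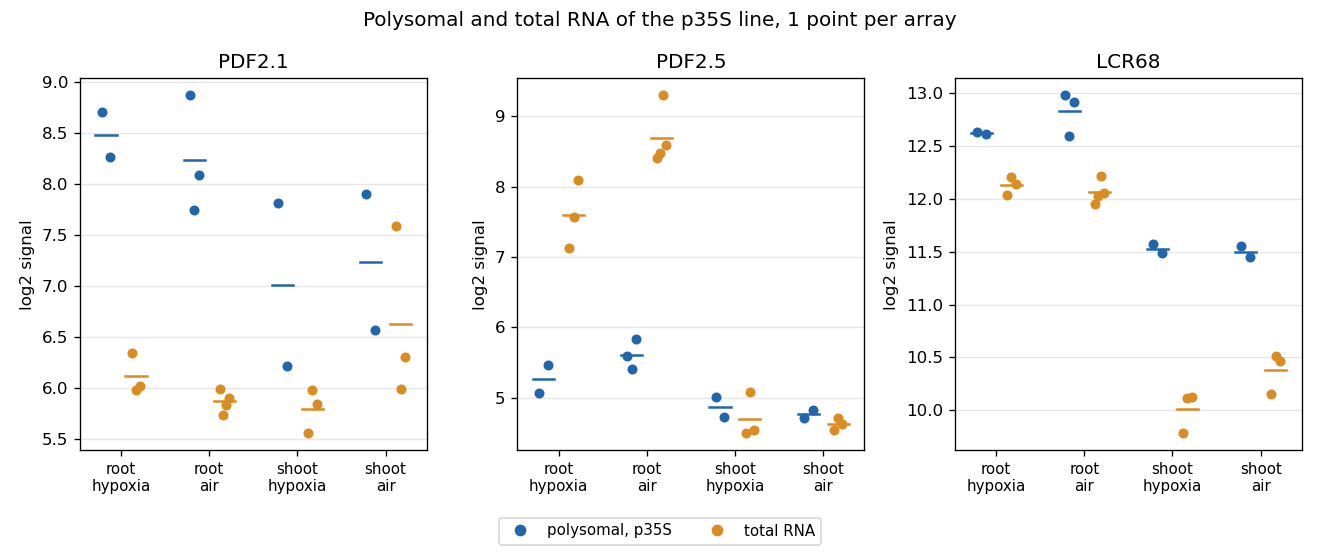
Log2 signals in polysomal RNA of the p35S line (blue) and total RNA (orange), 1 point per array with the group mean as a bar. In roots PDF2.1 lies higher and PDF2.5 lower in polysomal than in total RNA; in shoots LCR68 lies higher in polysomal RNA and PDF2.5 reads 5.08 or less in both, and each panel has its own axis range.

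The 10 other defensin and LCR genes with a named probe set were PDF1.2, PDF1.2b, PDF1.4, LCR24, LCR59, LCR66, LCR67, LCR69, LCR72 and LCR80. None of the 10 was called for hypoxia minus air in any population. This was 0 of 100 results in roots and 0 of 70 in shoots by limma (4 and 7 with an unadjusted p under 0.05). Over all probe sets 3.13% of results rose and 2.4% fell in roots, and 1.52% and 0.63% in shoots. LCR24, LCR59, LCR66, LCR67, LCR72 and LCR80 were dim, with median percentiles among probe sets between 3.6 and 18.9 in each organ. A fall would hardly show for them, so their lack of calls says little. By the F-test of the response, LCR67 differed among shoot lines, with a span of 1.01 (adjusted p 0.0356). The median hypoxia difference over all 13 genes lay between −0.10 and 0.09 in the root populations, where the median of all probe sets lay between −0.04 and 0.02. Among root lines in air 4 of 90 results of the 10 other genes were higher and 3 lower, all of LCR69. Over all probe sets 1.92% of these results were higher and 1.6% lower. The medians over the 13 genes lay between −0.09 and 0.07 (all probe sets −0.03 to 0.02). PDF1.4, LCR24, LCR59, LCR66, LCR67, LCR72 and LCR80 were not called against the other lines in any line of either organ. By the F-test, PDF1.4 differed among shoot lines, with ranges of 1.33 under hypoxia and 1.47 in air (adjusted p 3.84e-06 and 3.95e-07).

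LCR69 (AT2G02100, also called PDF2.2) belongs to the same cluster as PDF2.1 and LCR68. Like LCR68 it was lower in root pSCR (−1.91 ± 0.17 in air) and pPEP (−1.39 ± 0.17), and higher in pRPL11C (1.28 ± 0.17) and pWOL (1.02 ± 0.17), and it was lower in shoot pCER5 (−2.89 ± 0.18). LCR69 was also higher in pSHR (1.39 ± 0.17), its highest root line in air, and in pSultr2;2 (1.06 ± 0.17), where LCR68 differed by 0.68 ± 0.16 and 0.50 ± 0.16 and was not called. In root pSUC2 LCR69 was lower (−1.64 ± 0.17), as was PDF2.1, where LCR68 differed by −0.02 ± 0.16. In root p35S polysomal RNA LCR69 was higher than in total RNA, by 1.44 ± 0.21 under hypoxia and 1.38 ± 0.17 in air.

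PDF1.2 and PDF1.2b, the jasmonate and ethylene marker genes of the family, differed among shoot lines. In air PDF1.2 was higher in pRBCS (2.01 ± 0.34) and pGL2 (1.69 ± 0.34) and lower in pSUC2 (−1.98 ± 0.34), the line in which LCR68 was higher. The probe set of PDF1.2b, whose suffix marks probes that also match other transcripts, had the same signs in these 3 lines, so the copies cannot be told apart. Both were also called lower in pSultr2;2 in air. Under hypoxia both were called lower in pCER5, where LCR68 and LCR69 were lower too. PDF1.2b was higher in shoots than in roots in total RNA (root minus shoot −2.48 ± 0.26 in air), opposite in sign to PDF2.5 and LCR68. Of the other defence peptide list, THI2.1 and THI2.2 are measured. THI2.2, a thionin, was higher in shoots than in roots (−1.04 ± 0.25 in total RNA in air), and under hypoxia it was higher in pCER5 (1.32 ± 0.25) and lower in pSUC2 (−1.22 ± 0.25); THI2.1 was not called. EIN3, the 1 measured gene of the jasmonate, ethylene and salicylate list and a transcription factor of ethylene signalling, was not called in any comparison, with hypoxia differences between −0.89 and −0.02 in roots.

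Across the 36 group means, LCR68 and PDF2.1 varied together at a Pearson r of 0.62 (0.82 over 21 root and 0.55 over 15 shoot groups), and LCR69 with PDF2.1 at 0.82 and with LCR68 at 0.87. PDF2.5 correlated with PDF2.1 at 0.08 and with LCR68 at 0.35, and over root groups alone at −0.30 and −0.22. These are descriptions, since the groups share lines and, for the cluster genes, perhaps probe matches. The sources used here do not say if RMA was run on all 79 at once.

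Among probe sets with 1 named gene and an SD of group means of at least 0.5, the 5 closest to PDF2.5 over all 36 groups were TBL30 (r 0.94), AT5G12970, AT2G43670, AT5G14130 and AT4G14695 (0.93 each). Over root groups alone these 5 had r between 0.85 and 0.90, and over shoot groups, where PDF2.5 hardly varies, between −0.15 and 0.67. Closest to PDF2.1 were AT3G47180, AT1G63310 and AT3G15680 (0.84 each), AT3G10080 (0.82) and LCR69 (0.82). Closest to LCR68 were FMO (AT1G12200, 0.89), AT2G44300 (0.88), RALFL32 (0.88), LCR69 (0.87) and AT3G18280 (0.87), all with r of at least 0.88 over the shoot groups, where pCER5 sets the spread.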

How the data were processed

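Per the labels' protocols, RNA came from 7-day-old seedlings grown at 23 °C under 16 h of light, and between 15 and 100 ng went through 2 rounds of cDNA synthesis before labelling for 79 Affymetrix ATH1 arrays. The deposited log2 values were made with RMA in affy, per the submitters' processing notes; versions are not given there. Probe sets were named from the platform annotation, with RefSeq symbols of TAIR10.1. After 64 control probe sets were left out, 22746 were fitted with limma 3.58.1 in R 4.3.3, with a mean per group (43 residual and 4.48 prior degrees of freedom), and levels were summarised with pandas 2.3.3. There were 58 contrasts and 6 F-tests, each adjusted by Benjamini-Hochberg over all 22746. Contrasts of 1 line with the others share arrays. Code was tested on simulated data. Labels describe replicates as independent experiments, and their number limits the precision.

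Replicate numbers were checked by correlating deviations from group means: 0.26, 0.54 and 0.72 for root total RNA and 0.36, 0.22 and 0.60 for shoot total RNA under hypoxia and in air, so they pair these arrays; other pairs of groups share fewer numbers or correlated from −0.47 to 0.59. The fit has no block; the block was an alternative, beside 2 normalizations, an offset, a dim filter, fewer arrays in the fit, p35S as comparator and leaving out arrays. Members and gene lists were chosen with earlier results of these data known. Genes named are the members, list genes and the 5 closest probe sets per member.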

Additional observations from a re-analysis of the deposited data

Results flagged for a closer look

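The hypoxia response of LCR68 differed among the 5 shoot lines other than p35S by limma's F-test, with responses spanning 1.3734 on the log2 scale (adjusted p 0.0476). The response was 0.88 ± 0.21 in pCER5, where LCR68 is lowest, and −0.50 ± 0.21 in pSUC2 (SE, 2 arrays per condition). The span was 0.84 without air replicate 2 of pCER5 (adjusted p 0.355), which read 5.96 beside 7.02 in replicate 1, and 1.14 without hypoxic replicate 1 of pCER5 (0.303).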

How the results depend on the processing

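Of 192 results for the 3 genes, 66 were called. Quantile normalization kept 62 of these calls, lost 4 and gained 2, and subtracting array medians gave the same 3 counts; leaving out dim probe sets kept 65 and fitting fewer arrays kept 64. Adding 50 to linear values, which shrinks differences at low signals, kept 45: it gave 9 calls beside 14 for lines against other lines under hypoxia, 11 beside 19 in air and 1 beside 3 for hypoxia minus air, where PDF2.5 lost its calls in root total RNA and pCO2. For the root minus shoot comparison under hypoxia, 4 calls beside 6 were made with 50 added or medians subtracted. The LCR68 shoot F-test call was lost (0 of 1) with dim probe sets left out and with the shoot arrays alone; with 50 added it was lost too, while PDF2.5 gained one among root lines.

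With the replicate number as a block 64 calls were kept, 2 lost and 1 gained, that of PDF2.1 for root minus shoot in p35S in air (1.07, adjusted p 0.0127); it changed no other call. Against p35S in place of the other lines, 14 of 33 line calls were kept and 12 were lost. Signs turned in 12 results, and 15 other results gained a call. PDF2.1 was then −0.16 in root pWOL in air, −0.32 in pWOL and −1.14 in pSHR under hypoxia, −2.07 in hypoxic root pGL2, and in air shoots −1.45 in pGL2, −1.55 in pRBCS and −1.49 in pSultr2;2. PDF2.5 in roots was 0.28 in pSUC2, 0.15 in pPEP and 1.17 in pGL2 in air, and 0.56 in pSUC2 and 0.14 in pRPL11C under hypoxia. Of these, PDF2.1 in root and shoot pGL2, pRBCS and pSultr2;2 and PDF2.5 in pGL2 had not been called against the other lines. The cause of the turned signs was not tested.

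Leaving out single arrays, counts of calls ran from 11 to 15 for lines under hypoxia, 16 to 20 in air, 2 to 4 for hypoxia minus air, 6 to 8 for polysomal minus total, 5 to 6 and 7 to 9 for root minus shoot under hypoxia and in air, 8 to 8 for the F-tests among lines and 0 to 1 for those of the response. In all, 46 of the 66 calls held without any 1 array, 20 were lost without at least 1, 0 turned sign and 14 results gained a call. With 2 arrays in most groups, a lone array was assumed to vary like other groups.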
